A study of Mus musculus with 12 samples.

Results

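Eosinophils sorted from gonadal white adipose tissue were compared with eosinophils sorted from blood, over all 15367 genes with enough reads to test. The comparison takes 8 of the 12 libraries of the series, 4 from gonadal fat (mice 2846, 2807, 2683 and 2668) and 4 from blood (mice 2807, 2771, 2683 and 2668), chosen by their tissue labels. The other 4 libraries, from subcutaneous fat, entered the same statistical fit and are used at the end as a second fat depot. All mice were male wild-type FVB/NJ mice of 20 weeks on a chow diet, without treatment. All cells were gated as live CD45+ CD11b+ SiglecF+ cells after lysis of red blood cells. Gonadal fat was first digested with collagenase for 45 min at 37 C, and no digestion is stated for blood, so tissue of origin and digestion cannot be told apart. Mice 2807, 2683 and 2668 gave both a blood and a gonadal library, so the groups share 3 animals. Genes on lists of the early response, of cytokines and chemokines and of the eosinophil-associated ribonucleases are left aside here. These lists need not be complete, so genes of the same kind can remain in the results below.

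Eosinophils are granulocytes made in bone marrow under the control of interleukin 5. They circulate in blood for a short time and leave it through integrins and chemoattractant receptors, chiefly the eotaxin receptor CCR3, to live longer in tissues such as gut, lung and fat. In fat they are known as a source of type 2 cytokines and as partners of resident macrophages. Tissue residence is known to bring changes in adhesion molecules, receptors for lipid mediators, metabolism and protein synthesis. These are among the gene groups described here, whose lists were written with earlier results of these data known.

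The deposited values were estimated read counts, from 13285060 to 23734940 per library in these 8 libraries, and levels are given as CPM, which are counts scaled to a common library size (with TMM factors). A gene was called higher or lower only where edgeR gave an adjusted p under 0.05 with the same sign in all 14 fits: the fit of all libraries, the fit with mouse as a block, and 12 fits that each left out 1 library. With this rule 1276 genes were higher in gonadal fat (8.3% of those tested) and 1059 were lower (6.89%). These shares are the background against which counts of gene groups are read below. The single fit of all libraries called 2372 genes higher (15.4%) and 1780 lower (11.6%). The median log2 fold change of all genes was 0.08. An offset for effective transcript length, planned as an alternative, ended the single-fit call of 19 of 154 called genes that the naming rule picked: Col3a1, Ephb6, Fh1, Iars, Jaml, Max, Nup85, Pes1, Pfkfb4, Psmb9, Rgs10, Rrp1b, Sec11c, Sirpb1a, Suclg2, Tfb2m, Tmem173, Tomm20 and Utp20. Increases were larger than decreases: 732 of the 1276 higher genes and 217 of the 1059 lower genes changed at least 4-fold, and the median size was 2.30 and 1.22 on the log2 scale. In bulk libraries, fewer cells of a type and less RNA per cell cannot be told apart, and this holds for every result below.

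**Figure D1:**
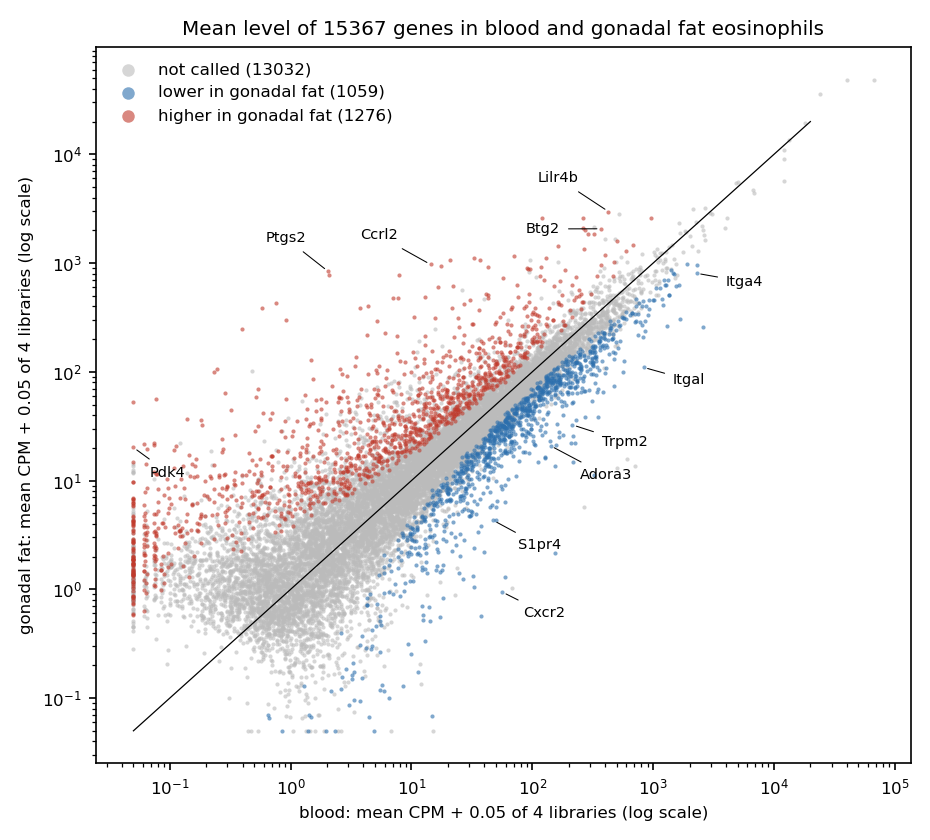
Mean CPM of each of 15367 genes in 4 blood libraries (x axis) and 4 gonadal fat libraries (y axis), both with 0.05 added and on log scales; the line marks equal levels. The 1276 genes called higher are red, the 1059 called lower are blue, and the red points lie farther from the line than the blue ones.

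The labelled cell type was checked with its own markers. Siglecf, the receptor used in the gate, averaged 273 ± 44.4 CPM in blood samples and 341 ± 138 CPM in gonadal fat (SD, n = 4 each) and was not called. Il5ra, the interleukin 5 receptor chain, had 122 ± 8.65 and 101 ± 36.7 CPM and was not called either. Transcripts of the granule proteins were near 0 in both tissues. Prg2 averaged 3.52 ± 1.71 CPM in blood libraries and 1.01 ± 0.470 CPM in gonadal fat, and Epx had 4.45 ± 2.02 and 4.49 ± 1.86 CPM. Ccr3 averaged 1526 ± 128 CPM in blood libraries and 725 ± 245 CPM in gonadal fat, a log2 fold change of -1.07 with an edgeR adjusted p of 0.0316, which was 0.0513 with mouse as a block and up to 0.0722 when 1 library was left out. Itgam, the CD11b gene of the gate, was called lower (-0.95, SE 0.25, edgeR adjusted p = 0.0152). Of 23 tested genes on the eosinophil identity list, 8 were lower (34.8%) and none was higher. The 8 held the ribonuclease genes Ear1, Ear2 and Ear6, beside Itgam, Cebpe, Gata1, Ptgdr2 and Siglece. In the single fit 9 were lower, and 1, Csf2rb, was higher (1.23, edgeR adjusted p = 0.03).

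Markers of other cells moved between the groups too. The summed level of 22 macrophage markers was 893.4 to 2356 CPM in blood and 2693 to 10797 CPM in gonadal fat, and 10 of the 22 were higher. The gonadal library of mouse 2683 held the highest sum and the blood library of mouse 2807 the highest of its group. Lyz2, the lysozyme of macrophages and other myeloid cells, had 836, 270, 427 and 64.2 CPM in the blood libraries, in the order of mice 2807, 2771, 2683 and 2668. It had 1602, 833, 3827 and 466 CPM in the gonadal libraries, in the order of mice 2846, 2807, 2683 and 2668. These 2 orders are kept for all single values below. Lyz2 was not called (edgeR adjusted p = 0.0943), and its groups overlapped. Selenop, a selenium carrier that resident macrophages make, was among the 10 and had 70.7, 34.4, 38.6 and 28.3 CPM in blood and 333, 1243, 1682 and 456 CPM in gonadal fat. C1qa, a chain of complement C1q, rose from 8.02 ± 8.02 to 125 ± 78.5 CPM, Apoe, an apolipoprotein, from 130.3 ± 124 to 1112 ± 794 CPM and Cd68, a lysosomal glycoprotein of macrophages, from 14.8 ± 11.8 to 155 ± 129.8 CPM. The median log2 fold change of the 22 markers was 3.57. Some members went the other way. Cd5l had 47.8, 42.2, 0 and 1.985 CPM in blood and 0, 1.80, 1.335 and 0.183 CPM in gonadal fat. Its log2 fold change of -4.77 passed in the single fit (edgeR adjusted p = 0.0464), but the gene was not called. Vsig4, a complement receptor, and Marco, a scavenger receptor, stayed between 0 and 20.2 CPM in all 8 libraries, with log2 fold changes of -1.15 and -3.64. Adgre4 had -0.48, and none of these was called. Of 24 genes of fat fibroblasts and their progenitors 14 were higher, and their summed level was 415.9 to 492 CPM in blood and 466 to 1344 CPM in gonadal fat, in blood mostly from Gsn and Pi16. Dcn, the fibroblast proteoglycan decorin, had 0.0593, 0.0470, 0 and 0 CPM in blood and 14.1, 98.4, 69.4 and 42.9 CPM in gonadal fat. Of 12 neutrophil markers 8 were lower, with sums of 3107 to 4649 CPM in blood and 387 to 815.6 CPM in gonadal fat. Of 15 B cell markers 7 were lower too, with sums of 139.2 to 636 and 44.73 to 114.5 CPM. Erythroid genes, mainly globins, summed to 8498 CPM in the blood library of mouse 2771 and to at most 148.6 CPM in the other 7 libraries, and none of them was called. Of the 1276 higher genes, 580 (45.5%) were highest in the gonadal library of mouse 2683, and of the 1059 lower genes, 525 (49.6%) were lowest there. Their part in the results below was not tested, beyond leaving out libraries: 1261 of the higher and 1050 of the lower genes also passed without the gonadal library of mouse 2683, the blood library of mouse 2807 and the shallow subcutaneous library of mouse 2846.

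**Figure D2:**
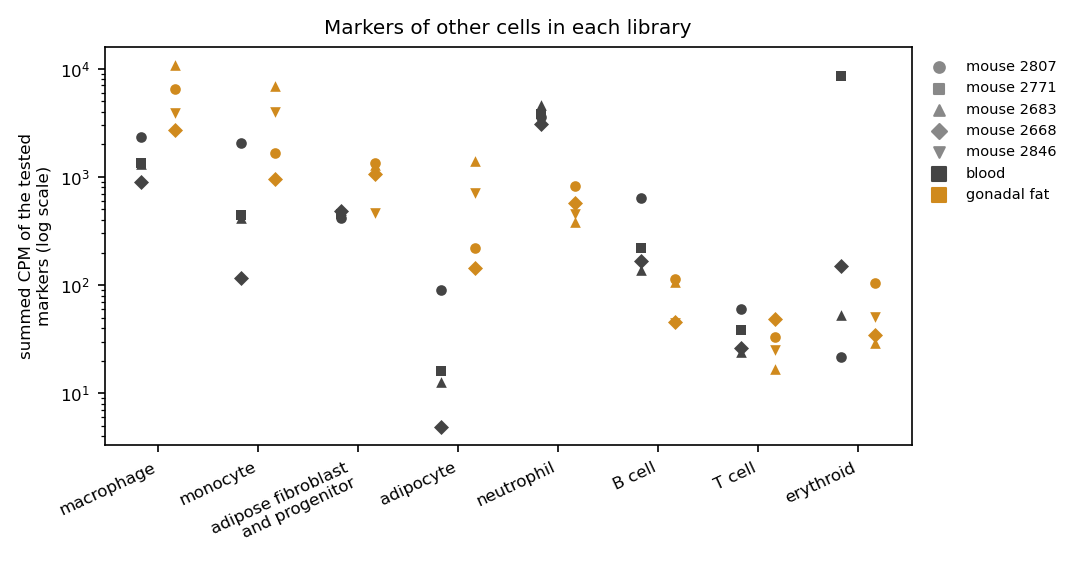
Summed CPM of the tested markers of 8 other cell types (x axis) in each library (y axis, log scale), with colour for tissue and symbol shape for mouse. The macrophage and adipocyte sums are highest in the gonadal library of mouse 2683 at 10797 and 1406 CPM, the neutrophil sums lie between 3107 and 4649 CPM in blood, and the erythroid sum of 8498 CPM stands alone in the blood library of mouse 2771. The adipocyte sum in the gonadal library of mouse 2683 came mostly from Lpl (1298 CPM) and Fabp4 (80.1 CPM). Plin1, Cfd and Plin4 had 1.53, 0.51 and 0 CPM there.

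Among adhesion genes, those called were all lower. Of 29 integrins and other leukocyte adhesion genes, 8 were lower in gonadal fat (27.6%, background 6.89%) and none was higher. Their products hold leukocytes to vessel walls and carry them through. Itgal, the alpha chain of LFA-1 on chromosome 7, 127296260 to 127335138 in mm10, which binds ICAMs, had 829.9, 911, 794 and 800.3 CPM in blood. In gonadal fat it had 134, 138, 79.7 and 86.7 CPM, so that the highest fat library lay far below the lowest blood library. Over all tested genes, 36.3% had no overlap between the 4 gonadal and 4 blood libraries in either direction. The log2 fold change of Itgal was -2.92 (SE 0.29, edgeR adjusted p = 3.24e-05). Itga4, the alpha chain shared by VLA-4 and the gut-homing integrin alpha4beta7, fell from 2291 ± 157 to 805 ± 302 CPM (SD, n = 4 each), and its partner Itgb7 fell from 468 ± 55.0 to 224 ± 85.1 CPM. Selplg, the selectin ligand PSGL-1 used in rolling, fell from 339.9 ± 33.8 to 112 ± 17.4 CPM. Icam2, an ICAM that leukocytes and endothelium carry, had 25.6, 24.0, 25.6 and 26.1 CPM in blood and 6.99, 9.22, 5.26 and 4.33 CPM in gonadal fat, with no overlap. Jaml, a junctional adhesion molecule of granulocytes, had the largest fold among the 8 called (-3.37, SE 0.85), at low levels of 16.3 ± 5.87 and 1.58 ± 1.34 CPM. The lower list members also held Itgb3 and Pecam1, which marks endothelium as well. The list median was -0.17 against 0.08 over all genes.

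Receptors that guide movement changed in both directions. Among 44 chemoattractant and lipid receptors 9 were lower (20.5%) and 4 higher (9.09%), while the list median was 0.41 and the single fit called 11 higher and 12 lower. The lower ones included receptors for CXC chemokines, for sphingosine 1-phosphate, for prostaglandin D2 and for nucleotides. S1pr4, a sphingosine 1-phosphate receptor of leukocytes, had 41.4, 46.5, 52.4 and 49.3 CPM in blood and 6.24, 4.32, 1.85 and 4.63 CPM in gonadal fat (-3.48 on the log2 scale, SE 0.43, edgeR adjusted p = 0.000146). Ptgdr2, the prostaglandin D2 receptor CRTH2 that draws eosinophils, fell from 72.7 ± 14.9 to 11.1 ± 4.80 CPM (SD, n = 4 each). Adora3, an adenosine receptor, fell from 141 ± 13.2 to 20.8 ± 4.75 CPM, while Adora2a, the adenosine receptor that raises cyclic AMP, went the other way. Adora2a had 3.5, 2.44, 3.46 and 4.02 CPM in blood and 44.3, 61.6, 29.1 and 320.2 CPM in gonadal fat, where the library of mouse 2668 stood far above the other 3. Its log2 fold change was 5.08 (SE 1.15, edgeR adjusted p = 0.00874), and 3.74 without that library. P2ry2, a receptor for extracellular ATP and UTP, fell from 127 ± 9.99 to 28.2 ± 2.85 CPM. P2ry14, a receptor for UDP-sugars, fell from 301 ± 26.3 to 123 ± 40.8 CPM.

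Ccrl2, an atypical receptor that binds the chemoattractant chemerin without signalling, showed the largest increase among the receptors called higher. Blood libraries held 13.2, 11.5, 15.1 and 17.6 CPM and gonadal libraries 875, 886, 775 and 1347 CPM, on chromosome 9, 111054486 to 111057519 in mm10. The log2 fold change was 6.08 (SE 0.39, edgeR adjusted p = 2.0e-06), and the 2 groups were far apart. Gpr18 had 39.6, 34.7, 35.0 and 22.8 CPM in blood and 1.15, 1.66, 1.06 and 0.122 CPM in gonadal fat. Cxcr2, the receptor for ELR chemokines that is best known from neutrophils and also stands on the neutrophil list, had 56.6, 72.2, 65.7 and 31.0 CPM in blood and 2.10, 0.360, 0.196 and 0.914 CPM in gonadal fat (-6.01 on the log2 scale, and -6.87 without mouse 2846 in fat). Cxcr5, known from follicular B and T cells, counted 3 reads in the 4 gonadal libraries and 459 in the 4 blood libraries. Scaled by depth this is a ratio of 136.7 (95% interval 46.48 to 665.3, counting error only), and the blood value rested on mouse 2807, with 19.9, 3.62, 0.314 and 1.99 CPM. The call was lost with limma-voom (adjusted p = 0.1065). Without that library the log2 fold change was -5.22, against -6.92 with it. B cell markers were also highest in that library. Gpr35 (from 13.1 ± 2.65 to 41.0 ± 8.04 CPM) and the chemokine receptor Ccr1 (from 65.0 ± 14.9 to 178 ± 43.5 CPM) were the other 2 that rose.

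Of 32 genes on a list of G protein signal termination, 7 were lower (21.9%) and 2 higher, with a list median of -0.09. The list also held Gng2, a G protein subunit gene, which was among the 7 lower (-1.05 on the log2 scale). RGS proteins speed up the return of G proteins to their inactive form. Rgs3 fell in all 4 gonadal libraries, with 132, 129.7, 122 and 150.3 CPM in blood and 39.0, 55.1, 27.8 and 41.9 CPM in gonadal fat, and Rgs14 fell from 200.2 ± 32.9 to 72.1 ± 19.2 CPM. Rgs1 was the exception in size. It had 10.8, 7.56, 7.59 and 5.21 CPM in blood and 849.7, 400.1, 1146 and 688 CPM in gonadal fat, a log2 fold change of 6.63 (SE 0.47, edgeR adjusted p = 4.28e-06). Per length, in TPM, which scales reads by transcript length, the mean level of Rgs1 was 1.22 ± 0.914 in blood and 164 ± 45.9 in gonadal fat. Rgs10 rose from 6.69 ± 1.59 to 36.7 ± 22.4 CPM. Grk2, the kinase that desensitises chemoattractant receptors, fell from 811 ± 51.1 to 405 ± 77.5 CPM, and Arrb2, the arrestin that follows it, from 150.5 ± 7.82 to 107 ± 9.87 CPM.

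Actin drives the crawling of leukocytes. Of 54 genes of actin and its regulators, 10 were lower (18.5%) and 2 were higher (3.70%), and the list median was -0.37. Coro1a, the coronin of leukocytes, had 1131, 1158, 1383 and 1363 CPM in blood and 644, 658, 472 and 729.8 CPM in gonadal fat (-1.01, SE 0.24, edgeR adjusted p = 0.00974). Cyfip2, a part of the WAVE complex that starts branched actin, fell from 266 ± 7.39 to 90.7 ± 31.8 CPM, and the small GTPase genes Rhof and Rnd1 fell by 2.02 and 1.80 on the log2 scale. Lcp1, which bundles actin, fell from 1450 ± 149 to 807 ± 53.0 CPM and Myo1f, a myosin of granulocytes, from 1275 ± 146 to 633 ± 54.2 CPM. Of the 10 lower genes, 9 were lowest in the gonadal library of mouse 2683, and all 10 also passed without that library, the blood library of mouse 2807 and the subcutaneous library of mouse 2846. Rhoc, a GTPase of many adherent cells, went up from 2.08, 0.657, 0.367 and 0.397 CPM in blood to 7.87, 5.26, 35.6 and 5.73 CPM in gonadal fat, where mouse 2683 had by far the highest value (3.97 on the log2 scale, 2.83 without that library and 4.78 without the blood library of mouse 2807). Calm2, 1 of the calmodulin genes, fell from 900.5 ± 101 to 331 ± 49.7 CPM.

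**Figure D3:**
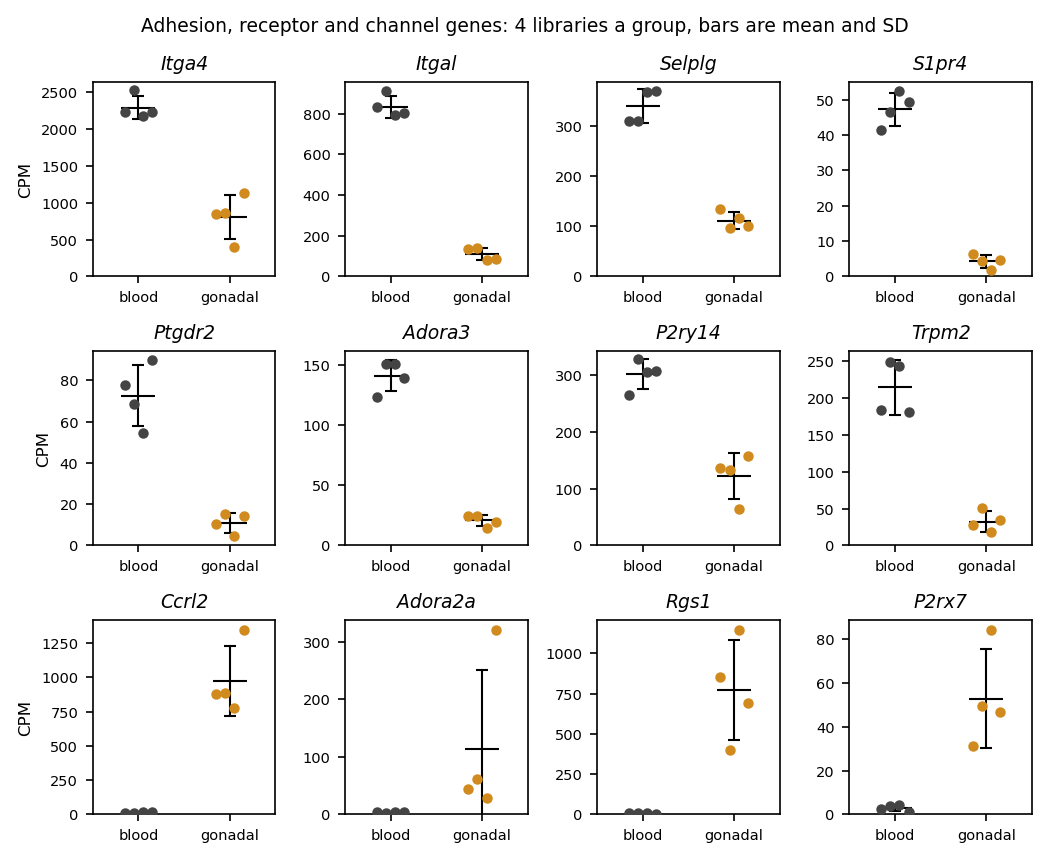
CPM of 12 adhesion, receptor, signal and channel genes (y axes, linear) in 4 blood and 4 gonadal fat libraries (x axes), with points for libraries and bars for mean and SD, cut at 0. Itga4, Itgal, Selplg, S1pr4, Ptgdr2, Adora3, P2ry14 and Trpm2 lie lower in every gonadal library than in any blood library, and Ccrl2, Adora2a, Rgs1 and P2rx7 lie higher.

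Channels changed in both directions, with 4 of 41 higher and 4 lower, shares close to the background. Those that fell handle calcium. Trpm2, a calcium channel opened by oxidants and ADP-ribose, had 184, 249.6, 243 and 181 CPM in blood and 27.1, 50.1, 17.7 and 35.0 CPM in gonadal fat (-2.73, SE 0.37, edgeR adjusted p = 0.000363). Itpr3 and Itpr2, channels that release calcium from the endoplasmic reticulum, fell from 339 ± 20.8 to 139 ± 43.4 CPM and from 428 ± 52.6 to 220.4 ± 52.8 CPM. Orai1, the pore of store-operated calcium entry, fell from 39.2 ± 6.28 to 19.4 ± 2.23 CPM. P2rx7, the ATP-gated channel, rose with 2.67, 3.71, 4.45 and 0.992 CPM in blood and 31.1, 49.6, 84.5 and 46.7 CPM in gonadal fat. Trpv4, a channel opened by stretch and warmth, rose from 0.510 ± 0.735 to 15.8 ± 8.68 CPM, and its log2 fold change of 4.98 was 6.63 without the blood library of mouse 2807. All 4 higher channel genes (Trpv4, P2rx7, Clic4 and Clcn7) were highest in the gonadal library of mouse 2683, which also held the highest macrophage sum.

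Paired activating and inhibitory receptors split. Of 47 tested, 11 were lower (23.4%) and 7 higher (14.9%), and the list median was -0.50. Lilr4b and Lilrb4a, near-identical neighbours that encode immunoreceptors of the LILRB4 type and may share reads, both rose. Lilr4b had 337, 436, 555 and 378 CPM in blood and 2391, 3216, 2235 and 4070 CPM in gonadal fat. Lilrb4a had 262, 300.5, 364 and 219.7 CPM in blood and 1564, 2054, 1524 and 2215 CPM in gonadal fat, and for both genes no library of 1 group reached the other. Their log2 fold changes were 2.80 (SE 0.33) and 2.68 (SE 0.23, edgeR adjusted p = 1.31e-05). Per length, Lilr4b had 491 ± 186 TPM and Lilrb4a 331 ± 101 TPM in gonadal fat (SD, n = 4). Clec4e, the lectin Mincle that senses mycobacterial and cell-death ligands, rose from 12.8 ± 5.55 to 215 ± 51.8 CPM. Cd200r1, an inhibitory receptor for CD200, rose from 15.6 ± 2.83 to 105 ± 36.8 CPM. The receptors that fell included the inhibitory Siglece, Lair1 and Pirb and the activating Trem1. Cd101 had 38.3, 46.0, 38.3 and 32.5 CPM in blood and 8.28, 7.57, 4.55 and 10.1 CPM in gonadal fat. Ptpn6, the phosphatase SHP-1 that many inhibitory receptors recruit, fell from 706 ± 80.0 to 337 ± 57.8 CPM. The 2 Pilrb genes also fell, and reads may be split between them.

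Sensors of microbes showed 6 of 38 lower (15.8%) and 3 higher (7.89%), with a list median of 0.65 and 10 higher and 9 lower in the single fit. The adaptor Myd88, which carries signals of most Toll-like receptors, had 128, 126, 143 and 141 CPM in blood and 48.0, 42.1, 43.2 and 37.5 CPM in gonadal fat (-1.66, SE 0.15, edgeR adjusted p = 1.82e-05). Tmem173, the DNA-pathway adaptor STING, fell from 54.8 ± 3.77 to 17.1 ± 3.78 CPM, Nod1, a sensor of bacterial wall fragments, from 63.7 ± 9.20 to 25.6 ± 3.15 CPM, and Traf6, a ubiquitin ligase below MyD88, from 34.9 ± 2.05 to 17.3 ± 2.93 CPM. Cd14, the lipopolysaccharide co-receptor, rose from 14.1 ± 4.99 to 80.5 ± 27.1 CPM. Casp4, the sensor of intracellular lipopolysaccharide, and Ticam2, an adaptor of Toll-like receptor 4, rose by 1.93 and 1.86 on the log2 scale. The 3 that rose were highest in the gonadal library of mouse 2683.

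Genes for making and exporting lipid mediators were called at a few steps. Of 29 tested, 4 were higher (13.8%) and 1 lower. Ptgs2, the inducible cyclooxygenase that feeds all prostaglandins, had 3.38, 1.46, 2.31 and 0.794 CPM in blood and 755, 897, 433 and 1282 CPM in gonadal fat, the largest increase of the list at 8.73 (SE 0.70, edgeR adjusted p = 1.13e-05). Hpgds, which makes prostaglandin D2, had 1.66, 0.892, 0.367 and 0.447 CPM in blood and 14.1, 50.5, 62.0 and 14 CPM in gonadal fat. It was highest in mice 2807 and 2683, the 2 gonadal libraries with the highest macrophage sums. The leukotriene side moved both ways. Lta4h, which makes leukotriene B4, fell from 224 ± 18.7 to 92.1 ± 19.1 CPM, and Ltb4r1, the receptor for that product, from 34.0 ± 4.23 to 14.1 ± 3.08 CPM. Dpep2, which turns leukotriene D4 into E4, rose from 2.55 ± 1.82 to 43.8 ± 45.4 CPM, with the highest value in mouse 2683, and its log2 fold change of 4.11 was 3.13 without that library. Abcc1, the exporter of leukotriene C4, rose from 80.0 ± 9.83 to 167 ± 18.4 CPM.

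Semaphorin, plexin and ephrin genes, a system of guidance cues and their receptors, had the highest median of the 28 lists (1.28), with 6 of 26 higher (23.1%) and 1 lower. Nrp1, a co-receptor for semaphorins and VEGF, had 10.4, 3.24, 1.36 and 0.0992 CPM in blood and 43.2, 95.4, 114 and 27.2 CPM in gonadal fat. Its paralogue Nrp2 had 20.0, 8.60, 19.3 and 2.63 CPM in blood and 125, 106, 256 and 40.6 CPM in gonadal fat. In fat both were highest in mouse 2683 and lowest in mouse 2668, as the macrophage sum was. The log2 fold change of Nrp1 was 4.22, and 5.43 without the blood library of mouse 2807. Plxnd1, a receptor for semaphorin 3E, had 142, 81.6, 92.4 and 101 CPM in blood and 424, 261, 724 and 135 CPM in gonadal fat. Its groups overlapped, since mouse 2668 in fat lay under mouse 2807 in blood, although the gene was called (1.89, SE 0.46, edgeR adjusted p = 0.0106). Ephb6, an ephrin receptor without kinase activity, was the member that fell, from 5.92 ± 0.274 to 2.0 ± 0.650 CPM.

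In the TGF-beta, Notch and Wnt list 6 of 49 genes were higher (12.2%) and 5 lower (10.2%). Repressors of TGF-beta signalling were among those that rose. Tgif1, a homeobox repressor that binds SMAD proteins, had 8.49, 3.94, 5.19 and 2.78 CPM in blood and 87.0, 81.4, 138 and 82.4 CPM in gonadal fat (4.26, SE 0.33, edgeR adjusted p = 7.11e-06). Skil, the SMAD corepressor SnoN, rose from 44.1 ± 7.71 to 199 ± 32.1 CPM. Axin2, a feedback target of Wnt signalling, fell from 172, 213, 239.5 and 225 CPM in blood to 66.0, 58.3, 26.1 and 55.5 CPM in gonadal fat. Lef1, a transcription factor of the Wnt pathway, had 7.83, 5.82, 3.88 and 5.85 CPM in blood, and 2 of 4 gonadal libraries had no read of it (-6.45, and -7.08 without mouse 2807 in fat). In the Notch pathway the receptor Notch1 and its glycosyltransferase Lfng fell from 532 ± 32.2 to 272 ± 83.1 CPM and from 191 ± 22.9 to 88.2 ± 22.6 CPM. Rbpj, the DNA-binding partner of Notch, rose from 132 ± 4.28 to 266 ± 27.2 CPM.

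Iron and antioxidant genes formed the list with the largest share of higher genes, 14 of 35 (40% against the background of 8.3%), while 5 were lower, and the list median was 0.85. The ferritin chains, which store iron, both rose. Fth1, the heavy chain, had 431, 363, 368 and 323 CPM in blood and 714, 699.5, 1558 and 834 CPM in gonadal fat. Ftl1, the light chain, had 693, 656, 685 and 674 CPM in blood and 1010, 1284, 2423 and 1114 CPM in gonadal fat. Neither overlapped between the groups, and both were highest in mouse 2683 by a wide margin. Per length their mean levels in gonadal fat were 587 ± 152 TPM for Fth1 and 643 ± 254 TPM for Ftl1 (SD, n = 4), against 244 ± 81.5 and 284 ± 79.1 TPM in blood. Slc40a1, ferroportin, which exports iron from cells, moved the opposite way. It had 218, 219.9, 111 and 118 CPM in blood and 7.53, 55.8, 23.6 and 13.9 CPM in gonadal fat (-2.73, SE 0.68, edgeR adjusted p = 0.0132), and -3.5 without mouse 2807 in fat. The call was lost when the 3 libraries that stand apart were left out together. Tfrc, the transferrin receptor that brings iron in, rose from 14.8 ± 6.63 to 58.2 ± 28.4 CPM, and so did the metal transporters Slc11a2 and Slc11a1, from 1.66 ± 0.710 to 8.46 ± 5.86 and from 39.3 ± 8.62 to 185 ± 35.3 CPM. For Slc11a2 the log2 fold change of 2.35 was 1.74 without mouse 2683 in fat.

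Targets of NRF2, the regulator of antioxidant genes, did not move together. Nfe2l2, the NRF2 gene itself, rose from 72.2 ± 9.22 to 155 ± 13 CPM. Srxn1, which repairs oxidised peroxiredoxins, had 3.62, 8.03, 4.71 and 6.50 CPM in blood and 27.3, 29.7, 43.2 and 36.9 CPM in gonadal fat (2.58, SE 0.38, edgeR adjusted p = 0.0005). Txnrd1, thioredoxin reductase, rose from 85.2 ± 2.05 to 213 ± 48.6 CPM. Nqo1, a quinone reductase that is a textbook NRF2 target, fell from 5.86 ± 2.48 to 0.873 ± 0.407 CPM, and the NRF2 target Osgin1 from 27.5 ± 4.02 to 8.0 ± 3.73 CPM. Cat, catalase, fell from 319 ± 39.2 to 171 ± 32.4 CPM. The metallothionein genes Mt1 and Mt2 rose from low levels in blood. Mt1 had 4.81, 0.0470, 0 and 0.695 CPM in blood and 19.8, 40.7, 59.5 and 13.2 CPM in gonadal fat, a log2 fold change of 4.61 that was 6.99 without mouse 2807 in blood. Among the 14 higher genes of the list, 10 were highest in the gonadal library of mouse 2683. All 14 also passed without the 3 libraries that stand apart, and so did 4 of the 5 lower ones, Slc40a1 being the exception.

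Lysosome genes that rose were mostly highest in the same library. Of 48 lysosome and autophagy genes 12 were higher (25%) and 3 lower (6.25%), and the list median was 0.81. Ctsb, cathepsin B, had 159, 98.9, 68.6 and 41.8 CPM in blood and 594, 702, 1990 and 279 CPM in gonadal fat. Ctsl, cathepsin L, had 7.06, 5.21, 2.51 and 4.66 CPM in blood and 42.0, 37.2, 176 and 21.3 CPM in gonadal fat. Among these 12 genes 11 were highest in mouse 2683, where all 12 stood at a median of 2.33 times the middle value of the other 3 gonadal libraries. All 12 also passed without the 3 libraries that stand apart. Without mouse 2683 in fat alone, the log2 fold changes went from 3.28 to 2.49 for Ctsb, from 3.83 to 2.76 for Ctsl and from 2.0 to 1.34 for Atp6v0a1. The proton pump that acidifies lysosomes contributed 5 genes, among them Atp6v0a1 (from 27.3 ± 4.42 to 109.5 ± 80.9 CPM) and Atp6v0c (from 30.0 ± 4.09 to 111 ± 51.7 CPM). Tfe3 and Mitf, factors that drive lysosome genes, rose by 1.75 (SE 0.22) and 1.88 (SE 0.34) on the log2 scale. The 3 that fell belong to autophagy. Map1lc3b, the LC3B of the autophagosome membrane, fell from 179 ± 23.8 to 93.0 ± 5.52 CPM, and its partners Wipi1 and Ulk1 fell by 1.26 and 0.93. Man2b1, a lysosomal mannosidase outside the list, fell as well, from 2298 ± 326 to 953 ± 160.4 CPM.

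Of 38 carriers of nutrients and ions, 10 rose (26.3%), and 1 fell, and the list median was 0.92. Slc16a3, the lactate exporter MCT4, rose from 93.9 ± 12.8 to 438 ± 222 CPM. Slc20a1, a phosphate carrier, rose from 8.26 ± 1.24 to 38.8 ± 9.16 CPM and Slc29a1, a nucleoside carrier, from 8.76 ± 2.23 to 28.5 ± 8.12 CPM. Slc15a3, a peptide and histidine carrier of endosomes, had 8.96, 8.12, 7.02 and 4.02 CPM in blood and 65.1, 46.5, 127 and 20.4 CPM in gonadal fat. Slc44a2, a choline transporter-like protein, was the member that fell. It had 189, 235, 214 and 198 CPM in blood and 22.3, 29.8, 19.7 and 16.8 CPM in gonadal fat, without any overlap (-3.24, SE 0.25, edgeR adjusted p = 6.25e-06). Over all 205 tested genes named Slc, a group formed after the values were seen, 28 were higher (13.7%) and 8 lower (3.90%).

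Central metabolism changed at few steps. Among 26 glycolysis and pentose phosphate genes 1 rose (3.85%) and 3 fell (11.5%). Pfkp, the platelet form of phosphofructokinase, rose from 37.1 ± 7.07 to 112 ± 26.9 CPM. The genes that fell included transaldolase and transketolase of the non-oxidative pentose phosphate branch. Taldo1 had 701, 744, 936 and 838 CPM in blood and 234, 247, 182 and 408 CPM in gonadal fat (-1.59, SE 0.30, edgeR adjusted p = 0.0023). Tkt fell from 298 ± 26.8 to 150.4 ± 23.7 CPM. The tricarboxylic acid cycle had 4 of 23 higher (17.4%) and 1 lower (4.35%). Mdh2, mitochondrial malate dehydrogenase, fell from 227 ± 33.5 to 98.2 ± 12.9 CPM, while Idh3a, Fh1, Suclg2 and Pdhx rose by 2.17, 1.46, 1.21 and 1.10 on the log2 scale from low levels, with 2.95 for Idh3a without mouse 2807 in blood. Pdk4, the kinase that shuts pyruvate out of the cycle, had no read in any blood library. Gonadal libraries held 7.13, 14.6, 53.5 and 5.18 CPM, at least 654.8-fold higher over the group (floor of 3 counts in blood). The highest value was again that of mouse 2683, and the fitted log2 value went from 11.34 to 10.08 without it. In the list of mitochondrial import and ribosomes, 2 of 40 rose (5%) and 3 fell (7.5%), shares near or under the background of 8.3% and 6.89%. Those that fell included Tfam and Tfb2m, which start transcription of the mitochondrial genome. Tfam fell from 23.3 ± 5.85 to 9.44 ± 3.08 CPM and Tfb2m from 14.4 ± 1.33 to 4.91 ± 1.46 CPM.

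Of 28 genes of the amino acid stress response, none was lower and 6 were higher (21.4%), and the list median was 0.86. Ppp1r15a, the phosphatase subunit GADD34 that restarts translation after stress, had 19.4, 15.1, 23.8 and 27.5 CPM in blood and 381, 377, 377 and 398 CPM in gonadal fat, on chromosome 7, 45522916 to 45526268 in mm10. The log2 fold change was 4.16 (SE 0.23, edgeR adjusted p = 5.36e-07), and the 4 fat libraries lay within a narrow range. Atf4, the transcription factor of this response, rose from 99.5 ± 13.8 to 199.8 ± 13.5 CPM. Eif2ak3, the kinase PERK that can start the response from the endoplasmic reticulum, had 114, 119, 103 and 116 CPM in blood and 45.4, 45.2, 46.9 and 38.4 CPM in gonadal fat, and so moved down (-1.36, SE 0.14). The amino acid carrier genes Slc3a2 and Slc7a1 rose from 55.4 ± 5.10 to 153 ± 35.1 CPM and from 24.2 ± 7.04 to 55.8 ± 14.8 CPM.

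The promoter of Ppp1r15a holds a full cyclic AMP response element, TGACGTCA, which reads the same on both strands and is bound by CREB and ATF proteins. Among 144 genes that the naming rule picked for this comparison, 110 had a promoter in the RefSeq table, and 5 of these held the 8 letters in the 250 bases before the gene start. Ppp1r15a, Btg2 and Tra2a rose and are shown. Fau and Mdh2 fell and hold the letters too. Over all 10117 tested genes with a promoter in the table, 270 (2.67%) held them. Only 922 of the 1276 higher and 803 of the 1059 lower genes had an entry, under the share needed to compare them, so no such comparison is given here. The sequences below are RefSeq, build GRCm38.p6, written 5′ to 3′ on the strand of the gene up to its start, with the 8 letters in capitals. They cover chr7:45526269-45526418, chr1:134079156-134079345 and chr6:49264053-49264202, all on the minus strand.
Ppp1r15a: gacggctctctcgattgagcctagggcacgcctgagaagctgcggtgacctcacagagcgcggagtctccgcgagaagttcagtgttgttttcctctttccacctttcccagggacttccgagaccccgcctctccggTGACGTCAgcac
Btg2: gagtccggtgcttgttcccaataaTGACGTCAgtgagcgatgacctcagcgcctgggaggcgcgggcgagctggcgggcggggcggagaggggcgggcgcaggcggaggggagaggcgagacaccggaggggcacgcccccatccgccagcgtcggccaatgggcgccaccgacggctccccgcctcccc
Tra2a: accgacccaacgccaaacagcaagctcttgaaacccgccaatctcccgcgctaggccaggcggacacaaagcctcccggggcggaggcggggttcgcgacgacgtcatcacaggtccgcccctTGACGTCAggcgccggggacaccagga
A match describes the letters in the window and shows no binding.

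Secreted and membrane proteins fold in the endoplasmic reticulum. Of 39 genes for translocation and folding there, 10 were higher (25.6%) and 2 lower, and the list median was 0.60. Hspa5, the chaperone BiP, had a mean of 165 ± 24.2 CPM in blood and 416 ± 81.7 CPM in gonadal fat (SD, n = 4 each). Calr, calreticulin, had 181, 87.5, 87.7 and 78.9 CPM in blood and 404, 196, 497 and 225 CPM in gonadal fat (1.6, SE 0.33, edgeR adjusted p = 0.00461). Rpn2, a subunit of the enzyme that attaches N-glycans, had 30.9, 12.8, 18.8 and 16.8 CPM in blood and 66.0, 57.6, 86.6 and 59.4 CPM in gonadal fat. Mouse 2807 was the highest blood library for both, and mouse 2683 was the highest gonadal library for all 10 genes that rose. Canx, Pdia3 and P4hb, a lectin chaperone and 2 disulfide isomerases, rose from 149.5 ± 28.5 to 299 ± 57.9, from 104 ± 25.8 to 191 ± 57.5 and from 110.1 ± 16.9 to 188 ± 39.8 CPM. Sec11c, a subunit of the signal peptidase, fell from 132 ± 6.71 to 73.8 ± 5.88 CPM. All 12 calls also held without the 3 libraries that stand apart.

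Charged tRNAs and ribosomes are needed for all protein synthesis. Of 20 aminoacyl-tRNA synthetases 5 were higher (25%) and none lower. Eprs, which charges glutamate and proline tRNAs, had 48.0, 33.8, 32.8 and 31.8 CPM in blood and 126, 133, 112 and 176 CPM in gonadal fat (1.91, SE 0.21, edgeR adjusted p = 7.10e-05). Of 46 ribosome biogenesis genes 8 were higher (17.4%), and Pes1 was lower, from 63.3 ± 4.31 to 34.5 ± 8.65 CPM. Gnl3, the nucleolar GTPase nucleostemin, rose from 8.84 ± 1.79 to 26.1 ± 9.06 CPM. The ribosomal protein genes themselves gave another picture, with 0 of 92 higher by edgeR and 4 lower, a share of 4.35%. Rps9 fell from 1176 ± 138 to 465 ± 37.5 CPM and Rps27a, made as a fusion with ubiquitin, from 250.2 ± 48.7 to 145 ± 28 CPM. Fau, which encodes another ubiquitin-like fusion to a ribosomal protein, fell from 576 ± 88.4 to 314 ± 26 CPM. Of 37 proteasome subunits 1 was higher and 1 lower (2.7% each, under the background). The lower one was Psmb9 of the immunoproteasome, from 20.1 ± 2.99 to 7.63 ± 1.58 CPM. Of 22 cytosolic folding genes 3 rose (13.6%), namely Hspe1, Stip1 and Bag3.

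In the polyamine pathway, the enzyme and its inhibitor moved apart. Odc1, ornithine decarboxylase, had 6.83, 5.07, 4.71 and 8.43 CPM in blood and 29.4, 23.3, 33.6 and 30.2 CPM in gonadal fat (2.22, SE 0.31, edgeR adjusted p = 0.000352). Azin1, which protects that enzyme, rose from 48.5 ± 5.51 to 87.2 ± 5.57 CPM. Oaz2, an antizyme that marks it for breakdown, had 150.3, 207, 185 and 222 CPM in blood and 54.0, 44.9, 31.5 and 65.7 CPM in gonadal fat. On the same list of 20 genes, Max and Mxd4, partners of the MYC network, fell from 214 ± 22.4 to 99.8 ± 14.9 and from 163 ± 12.6 to 89.4 ± 8.22 CPM.

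Traffic through the nuclear envelope gave 1 of the most one-sided lists. Of 42 nuclear pore and transport genes 13 were higher (31.0%) and none was lower, and the list median was 0.47. Both structural pore proteins and soluble carriers were among them. Nup93, a scaffold of the pore, had 5.58, 3.15, 3.19 and 2.28 CPM in blood and 16.4, 13.3, 24.7 and 14.7 CPM in gonadal fat (2.28, SE 0.31, edgeR adjusted p = 0.000339). Nup98 rose from 87.8 ± 9.18 to 235 ± 81.9 CPM and Nup205 from 20.3 ± 1.95 to 51.3 ± 5.43 CPM. Xpo1, the main exporter of proteins, rose from 40.4 ± 10.9 to 97.1 ± 10.6 CPM, the importin Ipo5 from 13.2 ± 3.63 to 47.0 ± 23.1 CPM, and Ran, the GTPase that powers both, from 32.1 ± 4.88 to 73.8 ± 18.9 CPM. Here mouse 2668 was the highest gonadal library for 7 of the 13 genes and mouse 2683 for 5, where the macrophage sum was highest too.

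Splicing factors followed with 8 of 48 higher (16.7%) and none lower, and the list median was 0.19. Tra2a and Tra2b, paralogues that bind exon enhancers, both rose. Tra2a had 69.4, 85.2, 72.3 and 89.1 CPM in blood and 186, 263, 126 and 293 CPM in gonadal fat. Tra2b had 96.0, 101, 109 and 102 CPM in blood and 252, 269.7, 210 and 308 CPM in gonadal fat (1.35, SE 0.16, edgeR adjusted p = 0.00012). Srsf3, an SR protein, rose from 105 ± 8.83 to 271 ± 46.8 CPM and Ptbp1, a repressor of exons, from 58.4 ± 6.82 to 127 ± 7.85 CPM. In fat 5 of the 8 were highest in mouse 2668 and 3 in mouse 2683.

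**Figure D4:**
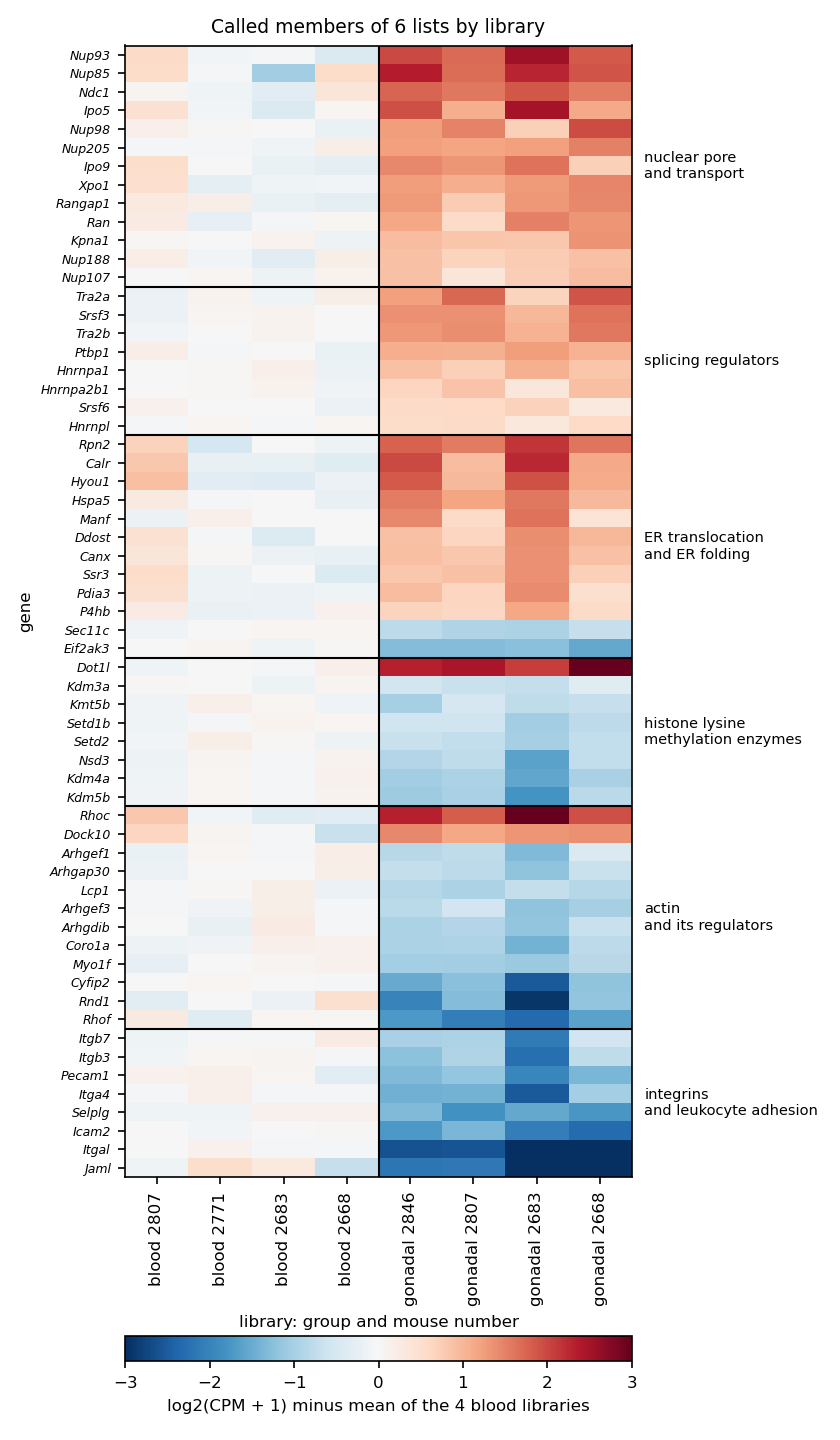
Called members of 6 lists (rows, genes) in the 8 libraries (columns, tissue and mouse number); colour gives log2(CPM + 1) minus the mean of the 4 blood libraries, from -3 to 3, with larger sizes shown at the end colours. Nuclear pore, splicing and most endoplasmic reticulum genes are red in all 4 gonadal libraries, while adhesion, actin and histone methylation genes other than Dot1l, Rhoc and Dock10 are blue.

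Chromatin genes were described by the enzymes that set or remove histone marks. Of 40 histone lysine methylation enzymes 7 were lower (17.5%) and 1 was higher, and the list median was -0.27. Dot1l, which methylates the globular part of histone H3, rose. It had 45.5, 50.2, 48.3 and 55.2 CPM in blood and 253, 277, 214 and 415 CPM in gonadal fat (2.54, SE 0.30, edgeR adjusted p = 0.000103). The lower genes held writers and erasers alike. Kdm4a, a demethylase of repressive marks, fell from 384 ± 30.0 to 176 ± 31.9 CPM, Kdm5b, a demethylase of promoter marks, from 211 ± 14.6 to 96.8 ± 25.4 CPM, and Setd2, which marks transcribed gene bodies, from 389 ± 39.6 to 226 ± 21.7 CPM. In fat 6 of the 7 were lowest in mouse 2683. Gene classes formed by name after the values were seen were looked at as well. Of 293 genes named Zfp with a number, 32 were lower (10.9%) and 6 higher (2.05%), and the lower ones included Zfp831 (from 225 ± 12.3 to 70.9 ± 33.7 CPM). Of 56 genes with histone cluster names 5 were higher (8.93%, near the background of 8.3%) and none lower. Among the higher ones was the linker histone Hist1h1d, from 47.4 ± 12.3 to 169 ± 56.6 CPM, and reads may be shared between such copies.

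Among non-coding RNAs, 105 of 2110 tested long non-coding genes were higher (4.98%) and 86 lower (4.08%). Both shares lay under the background of 8.3% and 6.89%, and the median log2 fold change of these genes was -0.14. They held 4.59% ± 0.499 of reads in blood and 6.21% ± 0.655 in gonadal fat (SD, n = 4 each), with no overlap between the groups. An exact two-sided permutation test gave p = 0.0286, the smallest that 4 against 4 libraries allow, and an adjusted p of 0.2 over 7 classes of RNA. Snhg15, a host of a small nucleolar RNA, rose from 2.43 ± 0.599 to 34.5 ± 3.64 CPM (3.82, SE 0.24), and the host Gas5 from 50.7 ± 8.32 to 120.3 ± 14.1 CPM.

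Genes linked to lymphocyte quiescence and survival gave the list with the largest share of lower genes, 13 of 30 (43.3% against the background of 6.89%), with 2 higher, and the list median was -0.87. The GIMAP GTPases sit on membranes of lymphocytes and other leukocytes and support their survival. Gimap9 had 23.9, 25.6, 22.7 and 19.8 CPM in blood and 4.55, 1.30, 1.41 and 4.63 CPM in gonadal fat (-2.95, SE 0.51, edgeR adjusted p = 0.00139). Gimap1, Gimap5 and Gimap8 fell too, and reads may be split among these neighbours. B cell markers, also lower in gonadal fat, were highest in the blood library of mouse 2807. Gimap5 had 12.4, 7.80, 7.07 and 7.99 CPM and Gimap8 12.3, 7.47, 2.72 and 3.62 CPM in the blood libraries, highest in mouse 2807, and the part of other cells in these values was not tested. The rest of the lower genes lie outside the GIMAP family, and the part of other cells was not tested for them either. Tsc22d4 fell from 309 ± 26.7 to 119 ± 18.1 CPM, Ypel3 from 168 ± 11.7 to 65.2 ± 8.65 CPM, the transcription factor Ets1 from 73.5 ± 26.1 to 21.9 ± 7.89 CPM and Foxo3 from 393 ± 13.4 to 203 ± 54.4 CPM. Btg2 and Btg1, antiproliferative partners of the mRNA deadenylase, rose. Btg2 had 330.1, 374, 419.8 and 359 CPM in blood and 2086, 2734, 1317 and 2130 CPM in gonadal fat (2.48, SE 0.32, edgeR adjusted p = 0.000199). Cdkn1b, the cell cycle inhibitor p27, fell from 362 ± 34.0 to 209.9 ± 50.1 CPM, whereas its relative Cdkn1a, p21, had 2.61, 2.82, 4.19 and 7.19 CPM in blood and 189, 206, 118 and 363 CPM in gonadal fat.

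Clock genes and glucocorticoid targets changed in both directions, 6 of 29 each way (20.7% each). The period genes, which form the repressor arm of the clock, moved apart. Per1 rose from 42.5 ± 10.5 to 479.6 ± 137 CPM. Per2 had 73.6, 96.2, 80.8 and 97.5 CPM in blood and 36.0, 20.4, 12.8 and 22.7 CPM in gonadal fat (-1.92, SE 0.28, edgeR adjusted p = 0.000528). Dbp, an output factor of the clock, fell from 11.1 ± 0.562 to 3.55 ± 1.27 CPM and its relative Tef from 86.6 ± 15.5 to 44.4 ± 11.7 CPM. Clock itself rose from 14.1 ± 4.12 to 46.2 ± 10.6 CPM. The labels do not state at what time of day cells were collected, and its part in these values was not tested. Glucocorticoid targets split as well, since Sgk1 fell from 154 ± 16.1 to 51.1 ± 18.9 CPM and Zbtb16 from 159.6 ± 15.3 to 72.7 ± 30.8 CPM, while Mt2 rose.

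**Figure D5:**
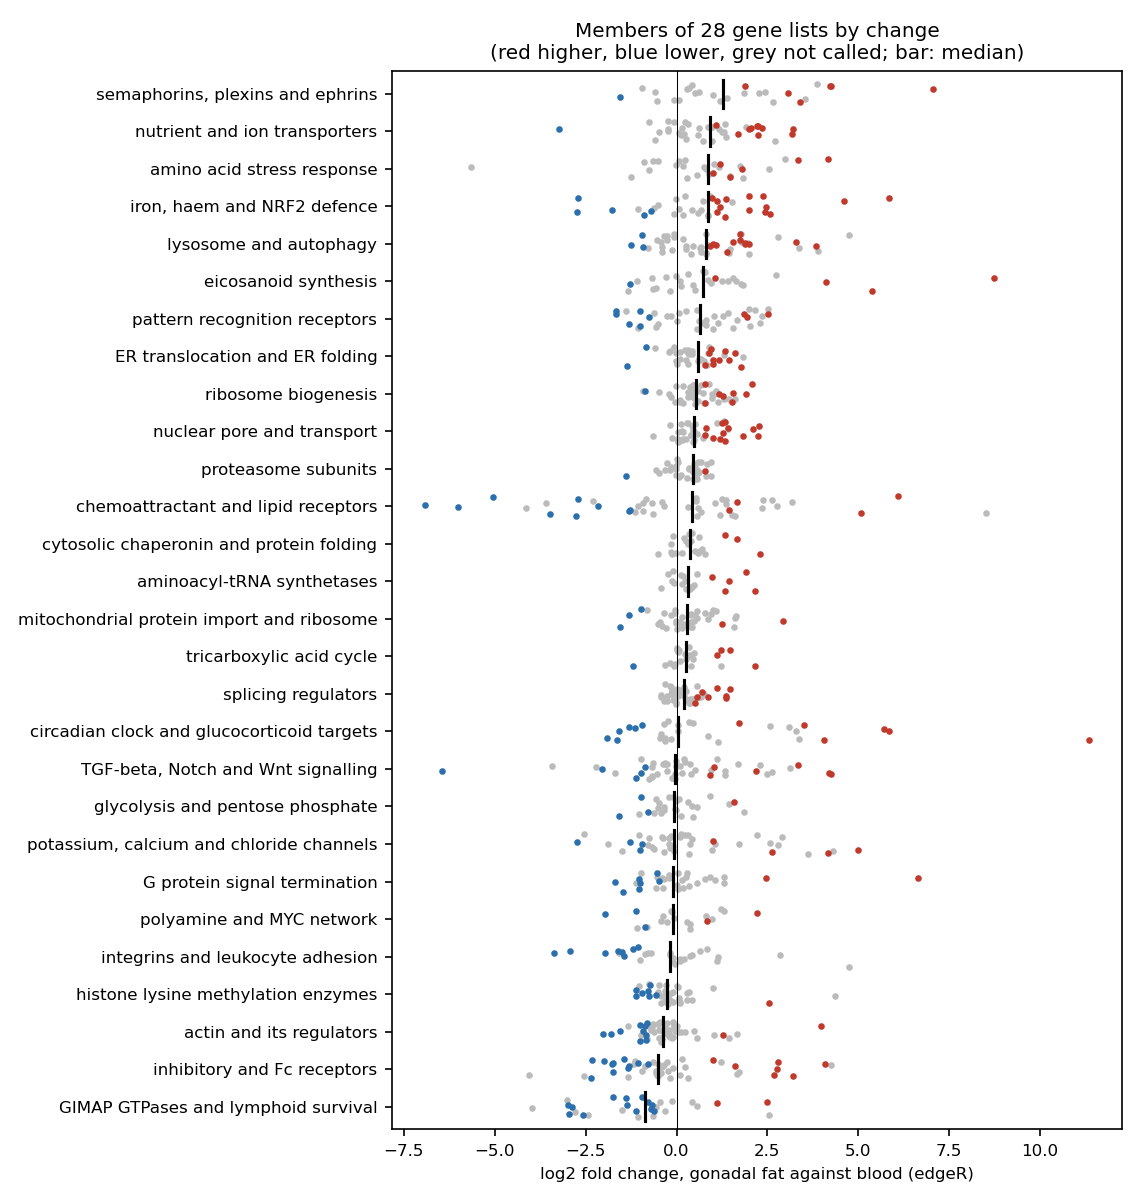
Log2 fold change between gonadal fat and blood (x axis, edgeR) of every tested member of 28 gene lists (y axis, ordered by median); red members were called higher, blue lower, grey neither, and bars mark medians. Medians run from -0.87 for GIMAP GTPases and lymphoid survival to 1.28 for semaphorins, plexins and ephrins, and members of both colours occur in most lists.

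The largest changes outside these lists are named by size. Dcstamp, a fusion protein of osteoclasts and giant cells, had no read in blood and 72.5, 16.1, 108 and 15.2 CPM in gonadal fat, at least 1603-fold higher over the group (floor of 3 counts), with a fitted log2 value of 12.74 (it depends on the prior count) that was 12.03 without mouse 2683 in fat. Mmp12, the macrophage elastase, had 2.08, 0.845, 0.0524 and 0.496 CPM in blood and 254, 112, 796 and 37.2 CPM in gonadal fat, highest where the macrophage sum was highest (8.45 on the log2 scale, 7.26 without that library and 9.24 without mouse 2807 in blood). Gas6, a ligand for receptors of dying-cell uptake, rose from 0.234 ± 0.438 to 63.3 ± 44.9 CPM, and C1qtnf1, a secreted relative of complement C1q, from 0.0628 ± 0.0769 to 20.8 ± 15.2 CPM. Their log2 fold changes rest on few blood reads and went from 8.15 to 11.32 without mouse 2807 and from 8.18 to 8.96 without mouse 2683 in blood. Sparcl1, Col6a5, Pmp22 and Cd209f completed the set, and Sparcl1 had 7.74, 105, 14.9 and 20.5 CPM in gonadal fat, where mouse 2807 stood alone (8.73 on the log2 scale, 7.34 without that library and 12.20 without mouse 2807 in blood). The call of Sparcl1 was lost with limma-voom (adjusted p = 0.1397). Gas6, C1qtnf1, Pmp22 and Cd209f were highest in mice 2807 and 2683, the gonadal libraries with the highest macrophage and fibroblast sums. Gas6 had 19.5, 107, 96.7 and 30.1 CPM in gonadal fat. Col6a5 was highest in mice 2683 and 2668. The part of other cells in these values was not tested. Downwards, Bmx, a kinase of the TEC family, had 27.7, 33.9, 29.8 and 14.7 CPM in blood and 0.611, 2.23, 0.942 and 1.04 CPM in gonadal fat. Adamdec1, a secreted metalloprotease, fell from 216 ± 38.7 to 14.7 ± 5.38 CPM, Gcnt2, which branches poly-lactosamine chains, from 225 ± 37.9 to 22.2 ± 11.8 CPM, and Hp, haptoglobin, from 32.7 ± 8.80 to 2.34 ± 1.16 CPM. E2f2, a cell cycle factor, fell by 3.44 on the log2 scale. Slfn1 and the pseudogenes Gad1-ps and Ear-ps2 were the other 3 of largest size, and Ear-ps2 may take reads of intact relatives.

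Subcutaneous fat eosinophils, as the second depot, were digested and sorted in the same way, so their levels stand beside the gonadal ones without the difference in digestion. Only 1 of 15367 genes was called between gonadal and subcutaneous fat by edgeR (0.00651%), while 1234 had an unadjusted p under 0.05, DESeq2 called 152 and limma-voom none. A p that misses the threshold does not show that the depots were alike. The gene was Lef1, with 0, 0.144, 0 and 0.122 CPM in gonadal fat and 34.7, 20.8, 23.0 and 2.72 CPM in subcutaneous fat (mice 2846, 2807, 2771 and 2668), a log2 fold change of -8.23 (SE 0.96, edgeR adjusted p = 0.0185). No gene was called between the depots in the fit with mouse as a block, in the fit of these 2 groups alone or in 6 of the 12 fits that left out 1 library. Levels of genes described above are given side by side, with no comparison, since both depots share the blood controls. Ppp1r15a had 504 ± 118 CPM there, Ccrl2 881 ± 413 CPM, Itgal 195 ± 78.9 CPM, Lilr4b 2864 ± 1182 CPM and Slc44a2 42.7 ± 12.5 CPM (SD, n = 4). Lower means in subcutaneous than in gonadal fat were seen for Dcstamp at 2.49 ± 2.51 CPM, Mmp12 at 4.25 ± 3.36 CPM and Dpep2 at 6.34 ± 6.25 CPM against 53.0 ± 45.5, 299.8 ± 343 and 43.8 ± 45.4 CPM in gonadal fat, but none of these 3 was called between the depots.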

How the data were processed

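RNA of sorted cells was sequenced as total RNA. The submitters' processing notes name the mm10 build and the tools Salmon 1.6.0, Trim Galore 0.6.4 and DESeq2 1.30.1, with no role or order. The deposited files give an estimated count, a TPM value and an effective length per transcript, per the file headers. No source used here names the annotation or says whether strand was used. Of 140992 transcripts, 139791 matched GENCODE M21 and the rest, at most 0.538% of the reads of a library, stayed out. Expected counts were summed over the 54115 genes and rounded. The authors' TPM was summed per gene for levels per length, and the authors' effective lengths served an alternative offset.

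edgeR 4.0.16 in R 4.3.3 (robust quasi-likelihood test, TMM scaling, filterByExpr) fitted all 12 libraries with the group as the only term, so that the 3 groups share 1 estimate of the spread (common coefficient of variation 0.545). Adjustment of p-values followed Benjamini and Hochberg over 15367 genes. The SE is the log2 fold change divided by the root of its F statistic. Spreads after ± are SD over the 4 libraries of a group. The single fit was tried on simulated counts with known changes. It recovered 6 of 50 genes changed 2-fold, 24 of 50 changed 4-fold, 35 of 50 changed 8-fold and 34 of 50 changed 16-fold. There were 4 false calls. A gene without a call may thus still differ. The labels number the mice, and these numbers pair 3 blood with 3 gonadal libraries. In these pairs, deviations from the group means correlated at 0.00998, -0.0626 and 0.295 over genes. No source used here gives extraction batches. Libraries made by PCR without stated molecular identifiers hold reads that are not independent molecules.

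The gene lists, 28 functional, 14 of other cells and 1 of eosinophil identity, and the genes to name were chosen with earlier results of these data known. The naming rule took, of the consistently called genes outside the early response, cytokine, Ear and other-cell lists, predicted genes, ribosomal protein genes and receptor segments, the 10 largest changes without overlap of at least 20 CPM and the 6 largest differences in mean TPM each way, up to 3 called members of each list of at least 5 CPM on the side with more calls and 2 on the opposite side, the 2 most abundant genes of each other-cell list, and 8 markers of the gate and the lineage. Other genes were picked after their values were seen. Near-identical copies can share reads, and 24 named genes overlap a tested gene on the other strand, among them Ftl1, Gpr18, Coro1a, Ctsb, Myd88, Cdkn1a and Tra2a. Of 1345 distinct list symbols, 7 had no match. Some results are not reported here. Promoters came from a RefSeq table.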

Additional observations from a re-analysis of the deposited data

Results flagged for a closer look

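In 28 of 370 groups of 4 libraries, of genes the naming rule picked (with at least 1 CPM in a library) or of shares of reads by RNA class, 1 library stood apart from the other 3 by more than the 95% limit of Dixon's test, which chance alone exceeds in about 1 in 20 groups. The blood library of mouse 2807 did so for 14 genes. It was the highest blood library each time, at 47.95 CPM for Eprs, 9.199 for Rrp1b, 181.1 for Calr, 37.63 for Hyou1, 6.825 for Idh3a, 4.807 for Mt1, 19.94 for Cxcr5, 2.077 for Rhoc, 1.602 for Trpv4, 20.83 for Clic4, 1576 for Fn1, 271.6 for Ighm, 5.045 for Col3a1 and 81.36 for Lpl. The gonadal library of mouse 2683 stood apart for 6 genes, at 1558 CPM for Fth1, 47.36 for Pes1, 176.2 for Ctsl, 35.58 for Rhoc, 138 for Tgif1 and 1.728 for Epx.

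The gonadal library of mouse 2668 stood apart at 320.2 CPM for Adora2a, 1.036 for Ephb6 and 1.828 for Gimap8. The gonadal library of mouse 2807 did so at 104.7 CPM for Sparcl1. In blood, mouse 2771 had 2339 CPM of Hba-a2 and 2754 CPM of Hba-a1, mouse 2683 had 1052 CPM of Calm2 and mouse 2668 had 1.985 CPM of Slc43a3.

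One gene the naming rule picked differed between gonadal and subcutaneous fat: the log2 difference of Lef1 was -8.232 (gonadal minus subcutaneous).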

How the results depend on the processing

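Of 15367 genes, 2372 were higher and 1780 lower in gonadal than in blood eosinophils in the single edgeR fit, against 1276 and 1059 called consistently. With limma-voom the counts were 3614 and 2870, with DESeq2 3045 and 2246, with RLE factors 2384 and 1806, with upper quartile factors 2270 and 1929, with the effective length offset 1725 and 1204, with the 2 groups only 2739 and 2459, and with the 3 libraries that stand apart left out (an alternative added after seeing the data) 2533 and 1907. Without a low-count filter 28788 genes were tested, and the counts were 1925 and 1376. Leaving out 1 library gave 1578 (without mouse 2771 in blood) to 2913 higher and 1243 to 2129 lower genes. With mouse as a replicate block, the counts were 1862 and 1415.

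Calls from the single fit, in place of all 14, raised the list counts most. Higher members were then 16 for ribosome biogenesis, 5 for chaperonin and folding, 18 for ER folding, 7 for the proteasome, 2 for glycolysis, 16 for transporters, 2 for histone methylation, 2 for integrins, 11 for chemoattractant receptors, 5 for G protein signal termination, 10 for pattern recognition, 10 for TGF-beta, Notch and Wnt, 7 for channels and 10 for clock and glucocorticoid targets. Lower members were then 1 for chaperonin and folding, 2 for the proteasome, 4 for amino acid stress, 2 for transporters, 1 for splicing regulators, 11 for G protein signal termination, 16 for actin and its regulators, 13 for TGF-beta, Notch and Wnt, 3 for eicosanoid synthesis, 7 for channels and 20 for GIMAP and lymphoid survival.

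Between gonadal and subcutaneous fat, 0 genes were called with the 2 groups only, with limma-voom, with mouse as a replicate block and without the 3 libraries, 152 with DESeq2, and 0 to 7 when 1 library was left out. None of 154 called genes that the naming rule picked changed sign when 1 library was left out. Limma-voom lost the calls of Col6a5, Cxcr5, Gimap8 and Sparcl1, and the test without a filter those of Apoe and Fabp4. Depth limits genes with few reads in blood, whose fold changes rest on counts near the floor.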
